A study of Mus musculus with 8 samples.

Results

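The enzymes of heme synthesis were followed in mouse leukemic progenitor cells after treatment with an inhibitor of mutant IDH1, with azacitidine, or with both. The members are the 8 genes Alas1, Alas2, Alad, Uros, Urod, Cpox, Ppox and Fech, listed by gene symbol as the enzymes of the pathway; all 8 are among the 12294 genes of the deposited table, and no filter on low values was applied. The step between Alad and Uros was not analysed here. The cells, which the labels name I1DN without spelling the name out, were transplanted into mice, so every group carries the same leukemia. Mice received AG120 and AZA together (AG120_AZA), AG120 alone (AG-120, ivosidenib), AZA alone (azacitidine, which blocks DNA methyltransferases) or Vehicle, for 5 days, with 2 libraries in each of the 4 groups. Doses, strain, sex and age of the hosts are not given in the sources used here. From each mouse, cKit+ CD11b- cells were sorted, and their RNA was read at the 3′ ends of polyadenylated transcripts (QuantSeq). The labels do not say whether the 2 libraries of a group are different mice, so the spread behind the p-values may be partly or wholly technical.

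Heme is built from glycine and succinyl-CoA in a chain that begins and ends in the mitochondrion and passes through the cytosol. 5-aminolevulinate synthase makes the first intermediate and limits the rate. Alas1 encodes its general form, present in most cells and known in liver to be repressed by heme, and Alas2 its erythroid form. Alad condenses that intermediate into a pyrrole, Uros closes the ring, Urod and Cpox trim its side chains, Ppox oxidises it to protoporphyrin, and Fech (ferrochelatase) inserts iron. Red cell precursors make most of the body's heme, for hemoglobin, and several of these genes are known targets of the erythroid factor GATA1. All cells with mitochondria need some heme for cytochromes.

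Alas2 is shown first, since its messenger carries a regulatory site in the 5′ UTR that the general form lacks: an iron-responsive element, which binds proteins that hold back translation when iron is scarce. It acts on translation, which RNA levels do not measure. In the GENCODE M21 transcript Alas2-201 (mouse chromosome X, plus strand, gene span 150547375 to 150570638 on GRCm38), the loop starts at base 96 of a 126-base leader. The 5 bases before the loop can pair with the 5 after it, and an unpaired C lies before that stem. The capitals mark the first 5 bases of the loop.
Alas2 iron-responsive element: ggttcgtcctCAGTGcagggcaaca

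Promoter windows are shown for Cpox and Alad, the members with the largest differences under AG120, and for Alas2, the erythroid form, whose window carries a GATA motif. They come from RefSeq (GRCm38.p6) and hold the 250 bases before an annotated start, cut where a GENCODE exon begins; Alas2 keeps 208 bases. Capitals mark CACCC (the KLF motif; GGGTG on the other strand) in Cpox and AGATAA (the longer GATA motif; TTATCT on the other strand) in Alas2.
Cpox promoter, chr16:58669958-58670207, plus strand: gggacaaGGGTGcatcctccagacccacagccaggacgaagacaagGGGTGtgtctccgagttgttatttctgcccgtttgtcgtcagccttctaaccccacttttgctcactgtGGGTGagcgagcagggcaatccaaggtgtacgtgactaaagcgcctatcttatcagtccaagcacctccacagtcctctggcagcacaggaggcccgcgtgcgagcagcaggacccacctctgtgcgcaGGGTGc
Alad promoter, chr4:62520064-62520313, minus strand: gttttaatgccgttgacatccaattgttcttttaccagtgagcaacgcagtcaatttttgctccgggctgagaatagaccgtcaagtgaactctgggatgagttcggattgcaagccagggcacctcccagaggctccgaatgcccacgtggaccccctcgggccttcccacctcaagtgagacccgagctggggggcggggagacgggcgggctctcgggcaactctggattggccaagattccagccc
Alas2 promoter, chrX:150547167-150547374, plus strand: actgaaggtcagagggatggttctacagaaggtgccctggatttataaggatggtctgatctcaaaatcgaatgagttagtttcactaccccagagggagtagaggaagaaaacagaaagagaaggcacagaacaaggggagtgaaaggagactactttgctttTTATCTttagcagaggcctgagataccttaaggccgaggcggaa
The Cpox window held 4 CACCC matches and no AGATAA; the shorter GATAA, searched after the letters had been read, matched once, 86 bases before the start. RefSeq gives Alad more than 1 start; the window shown held no CACCC, neither GATA motif and 4 matches to CANNTG (the E-box), and the window nearer the gene body (chr4:62519910-62520159), not shown, held 1 CACCC, at -47, neither GATA motif and 2 CANNTG. The Alas2 window of 250 bases held AGATAA, also 86 bases before the start, and 3 CACCC matches. These 3 matches lie in the part cut at the exon, so the 208 bases shown do not include them. Both strands were searched, and GATAA is part of AGATAA. Of 32851 mouse windows of 250 bases, 9.99% held AGATAA, 22.6% GATAA, 52.0% CACCC and 66.2% CANNTG. A match describes letters and is no evidence of binding.

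Alad, Cpox and Fech were higher in the 4 libraries with AG120 than in the 4 without, by 3.78-fold, 4.12-fold and 3.05-fold. Urod was 1.77-fold higher and narrowly missed the threshold. Ppox and Uros differed by less than 1.2-fold. Neither gene of the first step, Alas1 or Alas2, rose; both averaged lower with AG120, within a wide spread. The differences come from a limma model with AG120 and AZA as separate terms, over all genes, and a gene is called changed at a Benjamini-Hochberg adjusted p below 0.05. In that model 5.85% of the 12294 genes were called, 3.38% higher and 2.47% lower; of the 8 members 3 were called higher and 0 lower. The median log2 difference was 0.53 over the members and 0.0075 over all genes.

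**Figure D1:**
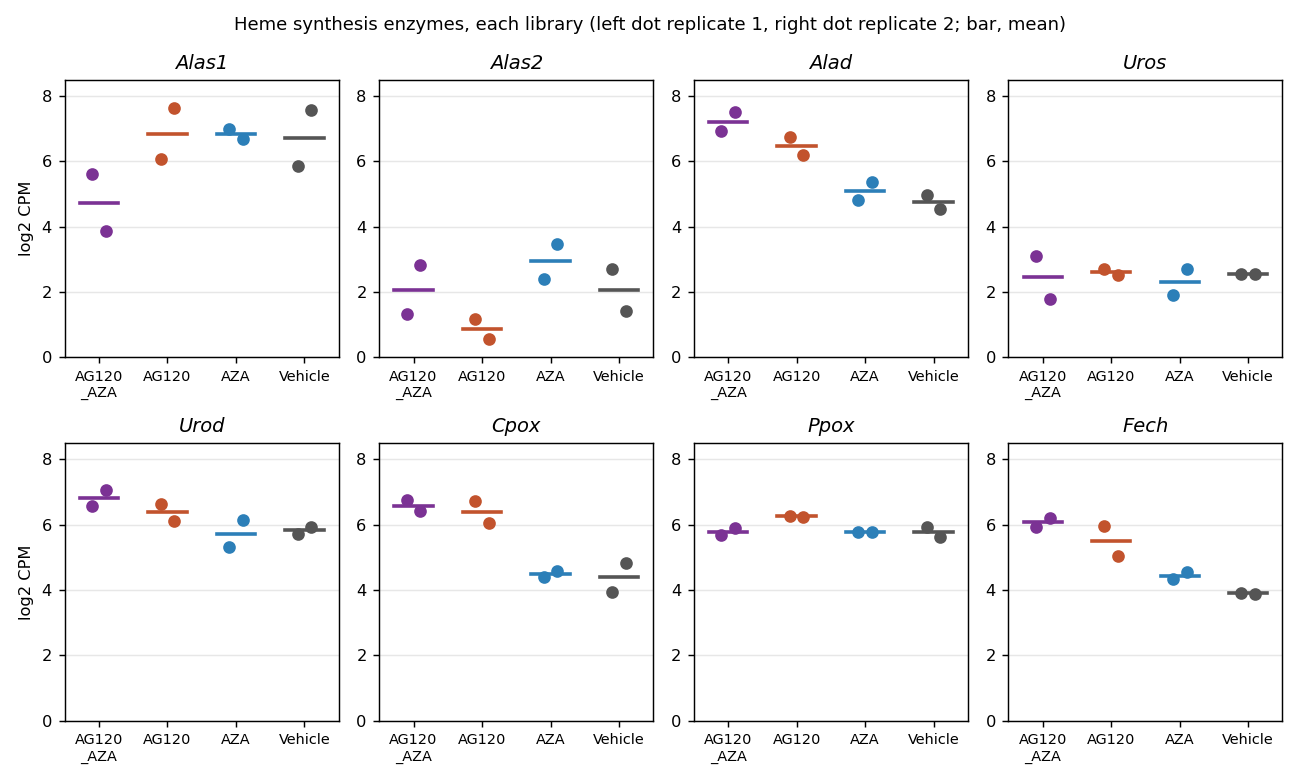
Level of each enzyme (log2 CPM) in the 8 libraries, in pathway order, each point 1 library and each group 2 libraries. The 4 libraries with AG120 lie above the 4 without it for Alad, Cpox and Fech, while the replicates of Alas1 stand up to 1.73 apart.

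Levels are log2 CPM, the log2 of counts scaled to a common library total, which the authors had also brought to a common distribution. Sums of markers in CPM, given below, add up 2 to the power of these values. Alad (chr4:62509169-62519918, minus strand; spans here and below are GENCODE M21 on GRCm38), the enzyme that forms the pyrrole, stood at 6.92 and 7.50 in the AG120_AZA libraries, 6.75 and 6.19 in AG120, 4.81 and 5.36 in AZA, and 4.97 and 4.54 in Vehicle. Every library with AG120 was above every library without it, and both AG120_AZA libraries were above both AG120 libraries, while AZA and Vehicle overlapped. Alad was not called in AG120_AZA against AG120. An order of 2 libraries against 2, here and for the members below, is a description. The smallest p that a two-sided exact permutation test of 2 against 2 allows is 0.333. Libraries with AG120 averaged 6.84 ± 0.54 and those without it 4.92 ± 0.35 (SD, n = 4 each). The difference was 1.92 ± 0.22 on the log2 scale (moderated SE; 95% interval 1.43 to 2.40; adjusted p = 0.00101).

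Cpox (chr16:58670292-58717636, plus strand), which makes protoporphyrinogen in the mitochondrial intermembrane space, stood at 6.76 and 6.40 in AG120_AZA, 6.73 and 6.06 in AG120, 4.41 and 4.60 in AZA, and 3.95 and 4.84 in Vehicle. The libraries with and without AG120 did not overlap, and neither AG120_AZA was set apart from AG120 nor AZA from Vehicle. The means were 6.49 ± 0.33 with AG120 and 4.45 ± 0.38 without it (SD, n = 4 each). The difference was 2.04 ± 0.23 (95% interval 1.54 to 2.55; adjusted p = 0.000938).

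Fech, the last enzyme, stood at 5.94 and 6.20 in AG120_AZA, 5.95 and 5.03 in AG120, 4.34 and 4.54 in AZA, and 3.92 and 3.88 in Vehicle. Here too the libraries with AG120 lay above all others, AG120 replicate 2 being the lowest of them, and both AZA libraries lay above both Vehicle libraries. The means were 5.78 ± 0.51 with AG120 and 4.17 ± 0.32 without it (SD, n = 4 each). The difference was 1.61 ± 0.22 (95% interval 1.13 to 2.09; adjusted p = 0.00225). The calls of Alad, Cpox and Fech held when any 1 of the 8 libraries was left out. Of all genes, 8.0% stood higher in the libraries with AG120 without overlap.

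Urod (chr4:116989965-116994413, minus strand), which removes carboxyl groups from the closed ring, stood at 6.56 and 7.07 in AG120_AZA, 6.65 and 6.12 in AG120, 5.31 and 6.15 in AZA, and 5.73 and 5.93 in Vehicle. AG120 replicate 2 lay just under AZA replicate 2, so the groups overlapped. Its difference with AG120 was 0.82 ± 0.23 (95% interval 0.32 to 1.32; adjusted p = 0.0566). Without AG120 replicate 2 it was 0.98 and passed the threshold (adjusted p = 0.0308); with a pseudocount of 1 CPM it was 0.81 and also passed (adjusted p = 0.0495).

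Ppox (chr1:171275990-171281186, minus strand), the enzyme between Cpox and Fech, stood at 5.69 and 5.89 in AG120_AZA, 6.26 and 6.24 in AG120, 5.78 and 5.76 in AZA, and 5.94 and 5.61 in Vehicle. It was highest in the AG120 libraries, and the other 3 groups shared one range. Its difference with AG120 was 0.25 ± 0.17 (95% interval -0.12 to 0.62; adjusted p = 0.413). That interval ends below those of Cpox and Fech, its neighbours in the pathway; differences between genes were not tested. The 3′ end of Ppox overlaps B4galt3 on the other strand, whose level followed it across the 8 libraries (Pearson r = 0.79, a description); the sources used here do not state whether counting used strand, so reads of overlapping genes cannot be told apart.

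Uros (chr7:133686243-133710072, minus strand), the ring-closing enzyme, was low, at 3.10 and 1.80 in AG120_AZA, 2.69 and 2.53 in AG120, 1.91 and 2.71 in AZA, and 2.54 and 2.54 in Vehicle. The AG120_AZA libraries held both the highest and the lowest value, and the other groups lay within them. The difference with AG120 was 0.10 ± 0.39 (95% interval -0.74 to 0.95; adjusted p = 0.899), an interval wide enough to hold a rise like that of Urod. Library depth cannot be read from these scaled values, but distinct low values count whole-read steps, and Uros lay only 16 to 62 steps above each library's lowest value.

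**Figure D2:**
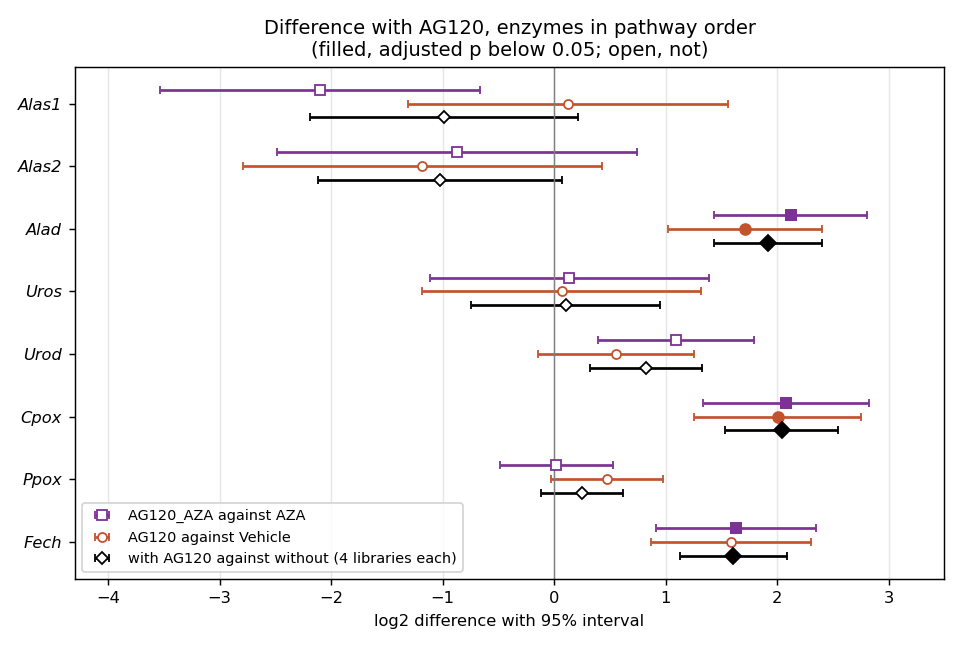
Log2 difference with AG120 for each enzyme in pathway order, with 95% intervals: AG120_AZA against AZA, AG120 against Vehicle, and all 4 libraries with AG120 against all 4 without. Filled symbols passed an adjusted p of 0.05: Alad and Cpox in all 3 comparisons, and Fech in 2.

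The first step behaved differently from library to library. Alas1 (chr9:106233455-106248654, minus strand) stood at 5.60 and 3.87 in AG120_AZA, 6.06 and 7.63 in AG120, 6.98 and 6.69 in AZA, and 5.86 and 7.58 in Vehicle. Both AG120_AZA libraries were below all others, and the AG120 libraries spanned about the same range as the Vehicle libraries. The replicates were 1.73 apart in AG120_AZA, 1.57 in AG120 and 1.72 in Vehicle, wider gaps than those of 92.9%, 92.6% and 91.6% of genes in those groups. The difference with AG120 over both AZA levels was -0.99 ± 0.55 (95% interval -2.19 to 0.21; adjusted p = 0.310).

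Against Vehicle, Alas1 differed in AG120_AZA by -1.99 ± 0.65 (adjusted p = 0.117), and in AG120 by 0.12 ± 0.65 (adjusted p = 0.958). Without AG120_AZA replicate 1 the AG120_AZA difference was -2.85 and passed (adjusted p = 0.0413). The interaction, the test of whether the AG120 difference depends on AZA, gave -2.22 ± 0.92 for Alas1 (adjusted p = 0.794). The summed level of 9 neutrophil markers, all of them in the table, was 2814 and 1062 CPM in AG120_AZA, 3920 and 6330 CPM in AG120, 15364 and 11040 CPM in AZA, and 2852 and 12966 CPM in Vehicle. In each of the 4 groups the library with more Alas1 also had the larger neutrophil sum, and AG120_AZA replicate 2 was lowest in both. Other lists came close to this match. The progenitor and sort sum followed Alas1 except in Vehicle (425 and 325 CPM), and was lowest in AG120_AZA replicate 2 (61.9 CPM). The monocyte and macrophage sum followed Alas1 except in AG120_AZA (202 and 213 CPM). S100a8 and S100a9 had the largest levels in the neutrophil sum, and the single neutrophil markers did not all follow that sum. In AG120, Lcn2, S100a8 and S100a9 were higher in replicate 2, as Alas1 was. Ltf (5.28 against 2.66), Camp, Ngp, Mmp9, Retnlg and Mmp8 were higher in replicate 1. In Vehicle, Camp, Mmp9, Retnlg and Mmp8 also ran against Alas1. The part of any of these cell types in the Alas1 values was not tested. Neutrophils carry CD11b, and the cells were sorted as cKit+ CD11b-. Itgam, which encodes CD11b, stood at 2.10 to 4.53 log2 CPM, and how many neutrophils remained was not tested. In bulk libraries fewer cells of a type and less RNA per cell cannot be told apart.

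Alas2, the erythroid form, was low, at 1.31 and 2.81 in AG120_AZA, 1.18 and 0.56 in AG120, 2.40 and 3.46 in AZA, and 2.70 and 1.41 in Vehicle. The AG120 libraries were the lowest and AZA replicate 2 the highest, with AG120_AZA and Vehicle covering much the same range. The difference with AG120 was -1.03 ± 0.50 (95% interval -2.12 to 0.07; adjusted p = 0.249), an interval that holds no rise like those of Alad, Cpox and Fech. Alas2 rested on 9 to 61 steps above the lowest value. The Apex2 gene model on the other strand spans it, at 2.85 to 3.94 log2 CPM and with r = 0.85 to Alas2 over the 8 libraries, so the same limit on strand applies.

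The hemoglobin genes had their highest and lowest sums in the same libraries as Alas2. Summed over Hbb-bs, Hbb-bt, Hba-a1 and Hba-a2, their level was 3503 and 3207 CPM in AG120_AZA, 1322 and 297 CPM in AG120, 1902 and 4691 CPM in AZA, and 2399 and 1627 CPM in Vehicle. The highest and the lowest library, AZA replicate 2 and AG120 replicate 2, were those of Alas2. Within AG120_AZA the order was reversed, Alas2 standing at 1.31 in replicate 1 and 2.81 in replicate 2. No globin gene was called with AG120: Hbb-bs differed by -0.80 ± 0.50 (adjusted p = 0.369) and Hba-a1 by -0.79 ± 0.47 (adjusted p = 0.343).

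The balance of the erythroid over the general form, log2 Alas2 minus log2 Alas1, was -4.28 and -1.06 in AG120_AZA, -4.88 and -7.06 in AG120, -4.58 and -3.22 in AZA, and -3.16 and -6.17 in Vehicle. The AG120 libraries lay below those of AG120_AZA and of AZA, and the other groups overlapped. Its mean was -4.32 ± 2.48 with AG120 and -4.28 ± 1.42 without it (SD, n = 4 each), a difference of -0.038 (two-sided exact permutation test over libraries, p = 1; the smallest p that 70 arrangements allow is 0.0286). The value of the ratio depends on how well each gene is read, so only its difference between groups is used. The sign of this difference turned with single libraries: it was 0.88 without AG120 replicate 2 and -1.13 without AG120_AZA replicate 2.

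**Figure D3:**
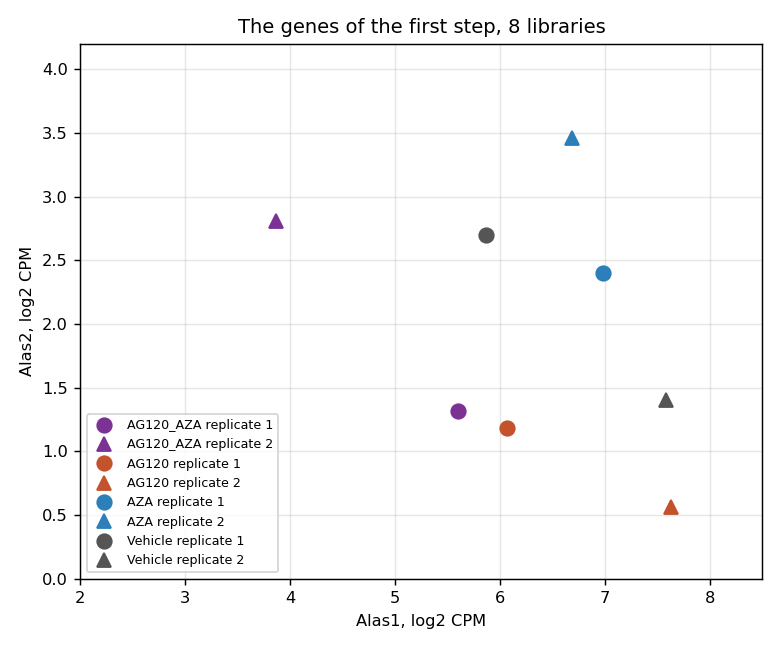
Alas2 level against Alas1 level (both log2 CPM) in the 8 libraries, coloured by group, with circles for replicate 1 and triangles for replicate 2. The libraries of a group lie far apart: the Vehicle points differ by 1.72 in Alas1, and AG120_AZA replicate 2 has the lowest Alas1, at 3.87.

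In AG120_AZA against Vehicle, Alad was 2.45 ± 0.31 higher (adjusted p = 0.00384), Cpox 2.19 ± 0.34 (adjusted p = 0.00747) and Fech 2.17 ± 0.33 (adjusted p = 0.00685). These 3 of 8 members were called, all higher, against 3.02% of all genes in either direction and 1.63% higher. Urod differed by 0.99 ± 0.32 (adjusted p = 0.111), and Alas2, Ppox and Uros by 0.01, 0.01 and -0.09. The 3 calls were lost without AG120_AZA replicate 2. The differences stayed near their size, at 2.16 for Alad, 2.37 for Cpox and 2.04 for Fech. With 1 library left in a group, its spread is taken from the other groups.

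AG120_AZA against AZA gave the effect of AG120 on top of AZA. Alad was 2.12 ± 0.31 higher (adjusted p = 0.00941), Cpox 2.08 ± 0.34 (adjusted p = 0.0129) and Fech 1.63 ± 0.33 (adjusted p = 0.0296), 3 of 8 members against 2.26% of all genes in either direction and 1.06% higher. Urod differed by 1.09 ± 0.32 (adjusted p = 0.0996) and Alas1 by -2.10 ± 0.65 (adjusted p = 0.117). No member was called without AZA replicate 1 (Alad adjusted p = 0.118, Cpox 0.148, Fech 0.224) or without AG120_AZA replicate 2 (Alad adjusted p = 0.106, Cpox 0.0780, Fech 0.226). Without AZA replicate 2 Alad alone was called (Cpox adjusted p = 0.0532, Fech 0.0796), and without AG120_AZA replicate 1 Alas1 joined the 3, at -2.97 (adjusted p = 0.0392).

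AG120 alone against Vehicle gave differences of the same order. Alad was 1.71 ± 0.31 higher (adjusted p = 0.0384) and Cpox 2.0 ± 0.34 (adjusted p = 0.0295), 2 of 8 members against 0.578% of all genes in either direction and 0.358% higher. Fech differed by 1.59 ± 0.33 (adjusted p = 0.0639), and Urod by 0.55, Ppox by 0.47, Uros by 0.07 and Alas2 by -1.18. These calls were the least firm. Neither Alad nor Cpox was called without Vehicle replicate 1, AG120 replicate 1, AG120 replicate 2, AZA replicate 1 or AZA replicate 2, with adjusted p from 0.0552 to 0.302, and Alad was not called without Vehicle replicate 2 or AG120_AZA replicate 2 (adjusted p = 0.120 and 0.0510). This comparison and AG120_AZA against Vehicle share the Vehicle libraries. Without the mean-variance trend in the model no member was called in any of these 3 pairwise comparisons, the adjusted p of Alad being 0.0626 in AG120_AZA against Vehicle, 0.0956 in AG120_AZA against AZA and 0.210 in AG120 against Vehicle.

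AZA moved no member past the threshold. In AZA against Vehicle 0 of 8 members and 0.0% of all genes were called by limma, and 432 genes but no member had an unadjusted p below 0.05. Alas2 differed by 0.88 ± 0.73, Fech by 0.54 ± 0.33 and Alad by 0.33 ± 0.31; the 95% intervals, -0.73 to 2.49, -0.18 to 1.25 and -0.36 to 1.02, leave room for moderate changes. In AG120_AZA against AG120, also with 0 of 8 members and 0.0% of genes called, 1237 genes had an unadjusted p below 0.05. Among them were 2 members, Alas1 at -2.11 ± 0.65 (adjusted p = 0.384) and Alad at 0.74 ± 0.31 (adjusted p = 0.466).

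Over both AG120 levels, the AZA term called 0 of 8 members and 0.0% of genes, with 761 genes at an unadjusted p below 0.05. The 2 members among them were Fech, at 0.56 ± 0.22, and Alad, at 0.53 ± 0.22 (adjusted p = 0.771 for both). Alas1 differed by -1.0 ± 0.55 and Alas2 by 1.03 ± 0.50, in opposite directions and neither called. The interaction of AG120 and AZA also called 0 of 8 members and 0.0% of genes, with 765 genes at an unadjusted p below 0.05, Alas1 the 1 member among them; for Urod it was 0.54 ± 0.45 (adjusted p = 0.841).

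Genes that supply the pathway were counted in lists around it, in the model with AG120 and AZA as separate terms. That model called 3.38% of all genes higher with AG120 and 2.47% lower, the shares to set beside each list. Of 24 genes of heme transport and mitochondrial iron, all measured, 5 rose with AG120 and 0 fell, with a median log2 difference of 0.17. Abcb6, a porphyrin transporter, was 2.14 ± 0.32 higher (adjusted p = 0.00353), and Abcb10, a mitochondrial transporter needed for heme synthesis in red cell precursors, 1.01 ± 0.19 (adjusted p = 0.0103). Glrx5, which hands on iron-sulfur clusters, was 1.00 ± 0.19 higher, and Tmem14c, which helps porphyrins reach the mitochondrial matrix, 0.74 ± 0.14. Tspo2, an erythroid relative of the porphyrin-binding protein Tspo, stood at 5.54 and 6.59 in AG120_AZA, 5.59 and 4.71 in AG120, -1.57 and 0.72 in AZA, and -2.74 and 1.97 in Vehicle, so it was scarce without AG120 and at the lowest value of Vehicle replicate 1. Isca1, a cluster assembly factor, differed by 0.97 ± 0.28 (adjusted p = 0.0624).

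Without AG120 replicate 1 the calls of this list dropped to 2, Abcb6 and Tspo2, with adjusted p of 0.0543 for Abcb10, 0.0648 for Tmem14c and 0.0638 for Glrx5. The mitoferrin Slc25a37, which brings iron into the mitochondrion of red cell precursors, was not among the genes called (-0.39 ± 0.18, adjusted p = 0.216), nor was the glycine carrier Slc25a38 (0.54 ± 0.22, adjusted p = 0.169). These 2 were named after their values were seen, for their place before the first and the last step.

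Of 16 genes of iron uptake, storage and regulation, all measured, 5 rose and 0 fell, with a median of 0.18. They include the route of transferrin iron into the cell. Tfrc, the transferrin receptor, was 0.84 ± 0.16 higher (adjusted p = 0.0108), Steap3, the endosomal iron reductase, 2.89 ± 0.35 (adjusted p = 0.00122), and Slc11a2, which carries iron out of the endosome, 1.92 ± 0.28 (adjusted p = 0.00283). Tfr2, a second transferrin receptor, was 1.34 ± 0.27 higher and Slc40a1, the iron exporter ferroportin, 2.28 ± 0.42. The ferritin light chain Ftl1 differed by -0.34 ± 0.14 (adjusted p = 0.181). Without AG120 replicate 1 Steap3 and Slc11a2 alone were called, Tfrc having an adjusted p of 0.0625, Slc40a1 0.0534 and Tfr2 0.0737; Tfr2 also lost its call without AZA replicate 1 (adjusted p = 0.0529).

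Of 15 genes of heme use, sensing, export and breakdown, 13 were in the table. Of these 1 rose and 1 fell, and the median was 0.25. Over all genes 3.38% were called higher and 2.47% lower, so 1 call in each direction says little about a list of this size. Blvrb, a biliverdin reductase abundant in red cells, was 3.30 ± 0.31 higher (adjusted p = 0.000314). Hmox2, the constitutive heme oxygenase that opens the heme ring, was 0.66 lower on the log2 scale (-0.66 ± 0.15, adjusted p = 0.0293). That call was lost under 6 of the 8 omissions of a library, all but Vehicle replicate 1 and AG120 replicate 2, with adjusted p from 0.0575 to 0.128. Hebp1, a heme-binding protein, differed by 1.44 ± 0.41 (adjusted p = 0.0606) and passed without AG120 replicate 2 (1.67, adjusted p = 0.0471). Eif2ak1, the kinase that senses heme shortage, differed by 0.50 ± 0.17 and Abcg2, an exporter of porphyrins, by 0.59 ± 0.33, neither called.

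Of 10 erythroid transcription factors with the erythropoietin receptor, all measured, 4 rose and 0 fell, with a median of 0.59. Klf1, which drives globin and other red cell genes, was 3.36 ± 0.25 higher (adjusted p = 7.4e-05), Gfi1b, a repressor needed in red cell and platelet precursors, 2.18 ± 0.32, Epor, the erythropoietin receptor, 1.86 ± 0.32, and Gata1 1.60 ± 0.29 (adjusted p = 0.00936). Lmo2 differed by -0.64 ± 0.27 and Tal1 by 0.62 ± 0.29, neither called; without AG120 replicate 2 Tal1 passed (0.91, adjusted p = 0.0487).

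**Figure D4:**
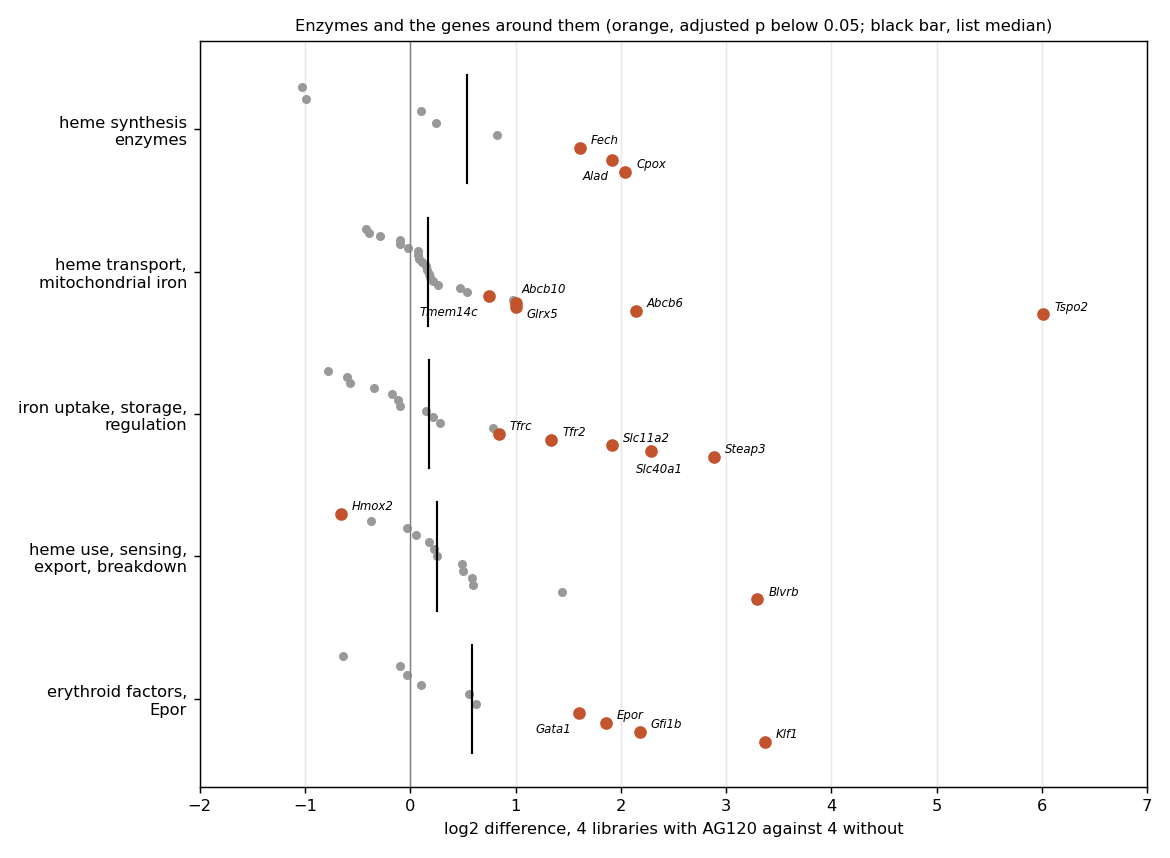
Log2 difference between the 4 libraries with AG120 and the 4 without it, 1 point per gene, for the 8 enzymes and 4 lists of genes around them. Orange points have an adjusted p below 0.05 and black bars are list medians; Hmox2 is the 1 called gene of these lists that lies below 0, and Tspo2, at 6.01, lies farthest from it.

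Markers of red cell precursors moved in the same libraries as Alad, Cpox and Fech. Their counts stand beside 3.38% of all genes called higher with AG120 and 2.47% lower. Of 22 erythroid markers, which include Klf1, Gata1 and Epor from the list above, 11 rose with AG120 and 0 fell; without the mean-variance trend 6 rose, the calls of Gata1, Epor, Ermap, Ank1 and Cldn13 being lost. Leaving out the 4 globin genes, the summed level of the other 18 was 1149 and 1457 CPM in AG120_AZA, 1053 and 616 CPM in AG120, 263 and 323 CPM in AZA, and 334 and 204 CPM in Vehicle, so the libraries with AG120 were all above those without. With the globins the sums overlapped: 4651 and 4664 CPM in AG120_AZA, 2375 and 913 CPM in AG120, 2164 and 5015 CPM in AZA, and 2733 and 1831 CPM in Vehicle. Ermap, Ank1 and Trim10 were at the lowest value in Vehicle replicate 1, Cldn13 in Vehicle replicate 2 and Trim10 in AG120_AZA replicate 2. The part of these cells in the enzymes' differences was not tested.

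For the lists below the same shares of all genes apply, 3.38% higher and 2.47% lower. A single call in a list of 8 or 9 genes says little beside them. Of 8 basophil and mast cell markers 4 rose with AG120. Their sum was 2551 and 2005 CPM in AG120_AZA and 2449 and 1601 CPM in AG120. It was 1250 and 1362 CPM in AZA and 1152 and 594 CPM in Vehicle. Kit, which encodes the sorted surface protein, was detected in every library, from 4.26 to 6.65 log2 CPM, and was 1.33 lower with AG120 on the log2 scale (-1.33 ± 0.27, adjusted p = 0.0162). That call was lost without AG120 replicate 1 (-1.27, adjusted p = 0.0702) and without AG120_AZA replicate 1 (-1.31, adjusted p = 0.0523). Itgam, which encodes CD11b, stood at 2.10 to 4.53 log2 CPM in cells sorted as negative for it. Of 5 progenitor and sort genes 3 fell, Kit, Cd34 and Sox4, and none rose; without AG120 replicate 1 the count was 1 (Cd34), without AG120_AZA replicate 1 it was 3 (Cd34, Flt3 and Sox4), and without the mean-variance trend it was 1 (Cd34). In the other marker lists 1 of 9 neutrophil, 3 of 8 monocyte and macrophage and 1 of 8 megakaryocyte genes fell, and none rose; over the omissions of a library these counts ranged from 0 to 6, 2 to 4 and 0 to 1.

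Across the 8 libraries the members formed a close set and a loose one. Pearson r was 0.98 between Alad and Fech, 0.93 between Cpox and Fech, 0.90 between Alad and Cpox and 0.90 between Alad and Urod. Alas1 ran against Alad, with r = -0.70, and Alas2 followed no other member, its r lying between -0.55 and -0.10. The libraries share treatment and scaling, so these are descriptions with n = 8 libraries.

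Among 8472 genes with a mean of at least 3 log2 CPM, those nearest to the members' mean profile were Nop10 (r = 0.99), Ftsj3 (0.98), Rhd (0.98), Cdca3 (0.98) and Aqp1 (0.98). Rhd and Aqp1, a blood group protein and a water channel of red cells, are on the erythroid marker list. Nop10 and Ftsj3, the nearest, and Cdca3 are not on the erythroid list. Nearest to Alas2 were Ppil4 (0.98), Pck2 (0.97), Tmem35b (0.96), Ppcdc (0.95) and Gm45713 (0.95), none of them on that list.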

How the data were processed

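QuantSeq 3′ RNA libraries of sorted I1DN progenitor cells (8 libraries, 2 per group) were analysed; bisulfite data were not used. The submitters' processing notes name build mm10, HISAT2 2.1.0, cutadapt 1.14 and bcl2fastq 2.17.1.14, then edgeR 3.28.1, limma 3.42.2, R 3.6.2, Subread 1.6.3 and featureCounts, with no settings. The deposited table holds log2 CPM values that the authors had scaled to one distribution: each library has the maximum 13.37, and 2 to the power of its values sums to 999525 to 999562. Depth is thereby unknown, and intervals and floors from counts could not be given.

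Values were used as deposited, with no filter. Limma 3.58.1 (R 4.3.3; lmFit, eBayes with a mean-variance trend) fitted 4 group means (4 residual and 7.06 prior degrees of freedom) for pairwise contrasts and the interaction, and an additive model (5 and 6.85) for each drug. P-values are two-sided and adjusted by Benjamini-Hochberg over 12294 genes. The fits were tested on simulated data. Alternatives were no trend, genes with a mean of at least 5, a pseudocount of 1 CPM, median centring, a replicate block, the compared groups alone, and each library left out. All members are named in the main comparisons; of each other list, up to 6 genes by smallest p in the AG120 term. Members and lists were chosen with earlier results of these data known.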

Additional observations from a re-analysis of the deposited data

How the results depend on the processing

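With AG120 and AZA as separate terms, the calls of Alad, Cpox and Fech held under every alternative run, except that Fech was not tested among genes with a mean of at least 5, and Urod joined them with a pseudocount of 1 CPM and without AG120 replicate 2. Pairwise counts moved more. Without the mean-variance trend 0 members were called in AG120 against Vehicle, AG120_AZA against Vehicle and AG120_AZA against AZA. In AG120 against Vehicle the count was 1 (Cpox) among genes with a mean of at least 5, 0 with the compared groups alone, and 0 to 2 over the library omissions; in AG120_AZA against Vehicle and AG120_AZA against AZA it ranged from 0 to 4. Over all genes, 0, 43, 9 and 211 were called without the trend in AG120 against Vehicle, AG120_AZA against Vehicle, AG120_AZA against AZA and the AG120 term, against 71, 371, 278 and 719 with it; the cause was not tested. Testing the 4760 genes with a mean of at least 5 gave 23, 82, 67 and 369. Fitting the compared groups alone gave 18 in AG120 against Vehicle and 200 in AG120_AZA against Vehicle, and a pseudocount of 1 CPM gave 427 in AG120_AZA against AZA. Library omissions spanned 8 to 103, 37 to 727, 14 to 594 and 201 to 771, and up to 213 in AG120_AZA against AG120 and 29 in the interaction. AZA against Vehicle called 2 genes without the trend and 1 with its groups alone. In the AG120 term, dropping the trend also ended the calls of Tmem14c, Glrx5, Slc40a1, Tfr2, Hmox2, Epor, Gata1 and Kit, with adjusted p from 0.0540 (Slc40a1) to 0.113 (Hmox2), and those of the markers Ermap, Ank1, Cldn13 and Sox4. The replicate numbers do not pair the libraries: deviations of same-numbered libraries correlated between -0.11 and 0.19 across the group pairs. With a replicate block 1 member (Cpox) was called in AG120 against Vehicle, and no other call of a member changed. Small differences changed sign. In AG120_AZA against Vehicle, median centring gave -0.038 for Alas2 and -0.035 for Ppox, and library omissions spanned -0.74 to 0.76 for Alas2, -0.15 to 0.18 for Ppox and -0.74 to 0.56 for Uros. In AG120 against Vehicle they spanned -0.73 to 0.98 for Alas1 and -0.011 to 0.15 for Uros, and in the AG120 term -0.16 to 0.36 for Uros. The Alas2 minus Alas1 difference was 0.17 with a pseudocount of 1 CPM and -1.13 to 0.88 over the omissions. Low step counts limit Alas2 and Uros.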
